A study of Homo sapiens with 6 samples.

Results

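The genes described here are 51 components of the machinery that selects DNA replication origins, unwinds DNA and copies it at the fork, taken by gene symbol from the 61541 genes of a raw count table. They were sorted by role into 9 genes of origin recognition and licensing, 11 of the CMG helicase, 3 of origin firing, 12 of the replicative polymerases, 6 of the sliding clamp and its loader, 3 of the single-strand binding complex RPA, 3 of lagging-strand maturation and 4 of fork protection. Transcripts were measured by RNA-seq in H9, an established human cutaneous T-cell lymphoma line grown as a single clonal line with the genotype given as wild type. There were 3 libraries of cells given the vehicle DMSO and 3 of cells given AZD4573, a small-molecule inhibitor of the transcription elongation kinase CDK9, at 50 nM for 4 h. The labels number the replicates but do not say whether they came from separate cultures, so p-values measure the spread between these libraries, which may be technical.

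Total counts were 70367303 to 76571157 in the DMSO libraries and 52101868 to 63795185 in the AZD4573 libraries, so each treated library was shallower than each control. A limit of 3 counts corresponded to 0.0382 to 0.0589 CPM (counts scaled by library total and normalization factor), and the lowest value of any of the 51 genes in any library was 3.24 CPM, for POLE2. Of 10 T-cell marker genes, 9 were at 1 CPM or more in every library and their sum was 1338 to 1347 CPM with DMSO and 1551 to 1594 CPM with AZD4573, while CD2 was near 0. Of 5 B-cell markers only CD79A and CD79B reached 1 CPM in every library, of 5 myeloid markers none did, and of 5 epithelial or fibroblast markers EPCAM and COL1A1 did. The B-cell sum moved from 61.0 to 67.0 CPM with DMSO to 92.5 to 103 CPM with AZD4573, the epithelial and fibroblast sum from 156 to 173 CPM to 137 to 141 CPM, and the myeloid sum stayed under 1 CPM in each library. The part of these shifts in the results below was not tested.

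Replication starts when the origin recognition complex, with CDC6 and CDT1, loads the ring of MCM2 to MCM7 onto DNA in G1, a step called licensing that geminin blocks in later phases. At the start of S phase the kinase CDC7 with its activator DBF4 acts on the loaded ring, CDC45 and the GINS complex join it, and the resulting CMG helicase opens the fork for the polymerases. Most of these genes are transcribed in a cell-cycle-dependent manner through E2F factors, and proliferating lymphoma cells express them at high levels.

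With AZD4573, 33 of the 51 replication genes (64.7%) were lower and 12 (23.5%) were higher by the quasi-likelihood test of edgeR (adjusted p under 0.05, adjustment by Benjamini and Hochberg over all genes). Over the 17678 genes tested, the same test called 37.4% lower and 37.3% higher. The share of replication genes that were lower was thus above that of all genes, and the share that were higher was below it. All 51 are protein-coding, and among protein-coding genes 44.3% were lower and 35.8% higher. The median level of the 51 over the 6 libraries was 23.6 CPM per kb of canonical transcript. It was 3.78 over genes tested that had a length and 6.70 over protein-coding genes. How far level affects the share called was not tested. The other 6 of the 51 genes, CDT1, MCM6, MCM7, POLE3, RFC1 and RFC2, did not pass the test. The split of the 51 genes depended on how the libraries were scaled, here by the trimmed mean of M values (TMM). With the libraries scaled instead to the 13 mRNAs of the mitochondrial genome, 50 of the 51 were lower and 0 were higher. All 51 fold changes were then below 0. With that scaling 11878 of the 17678 genes tested were lower and 2144 were higher. In bulk RNA, fewer cells in a given phase of the cycle and less transcript per cell cannot be told apart.

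The median log2 fold change of the 51 genes was -0.41, against 0.03 over all genes tested, and 37 of the 51 lay below the median of all genes. The range was wide, from -1.90 for POLD3 to 0.70 for POLD2, which encode subunits of the same polymerase. A fall of at least 1.5-fold that passed the test was seen in 19 genes (37.3%), against 23.7% of all genes tested, and a rise of at least 1.5-fold in 1 gene, POLD2, against 22.7% of all genes tested. The 3 AZD4573 libraries lay below all 3 DMSO libraries for 33 genes and above them for 13, where 38.7% and 39% of all genes tested did so, and for 5 genes the groups overlapped. Summed over the 51 genes, the level was 9750 ± 97.3 CPM with DMSO (SD, n = 3) and 9399 ± 77.1 CPM with AZD4573 (SD, n = 3), or 96.4% of the control, since several abundant members, among them MCM7, MCM2 and LIG1, did not fall on this scale.

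**Figure D1:**
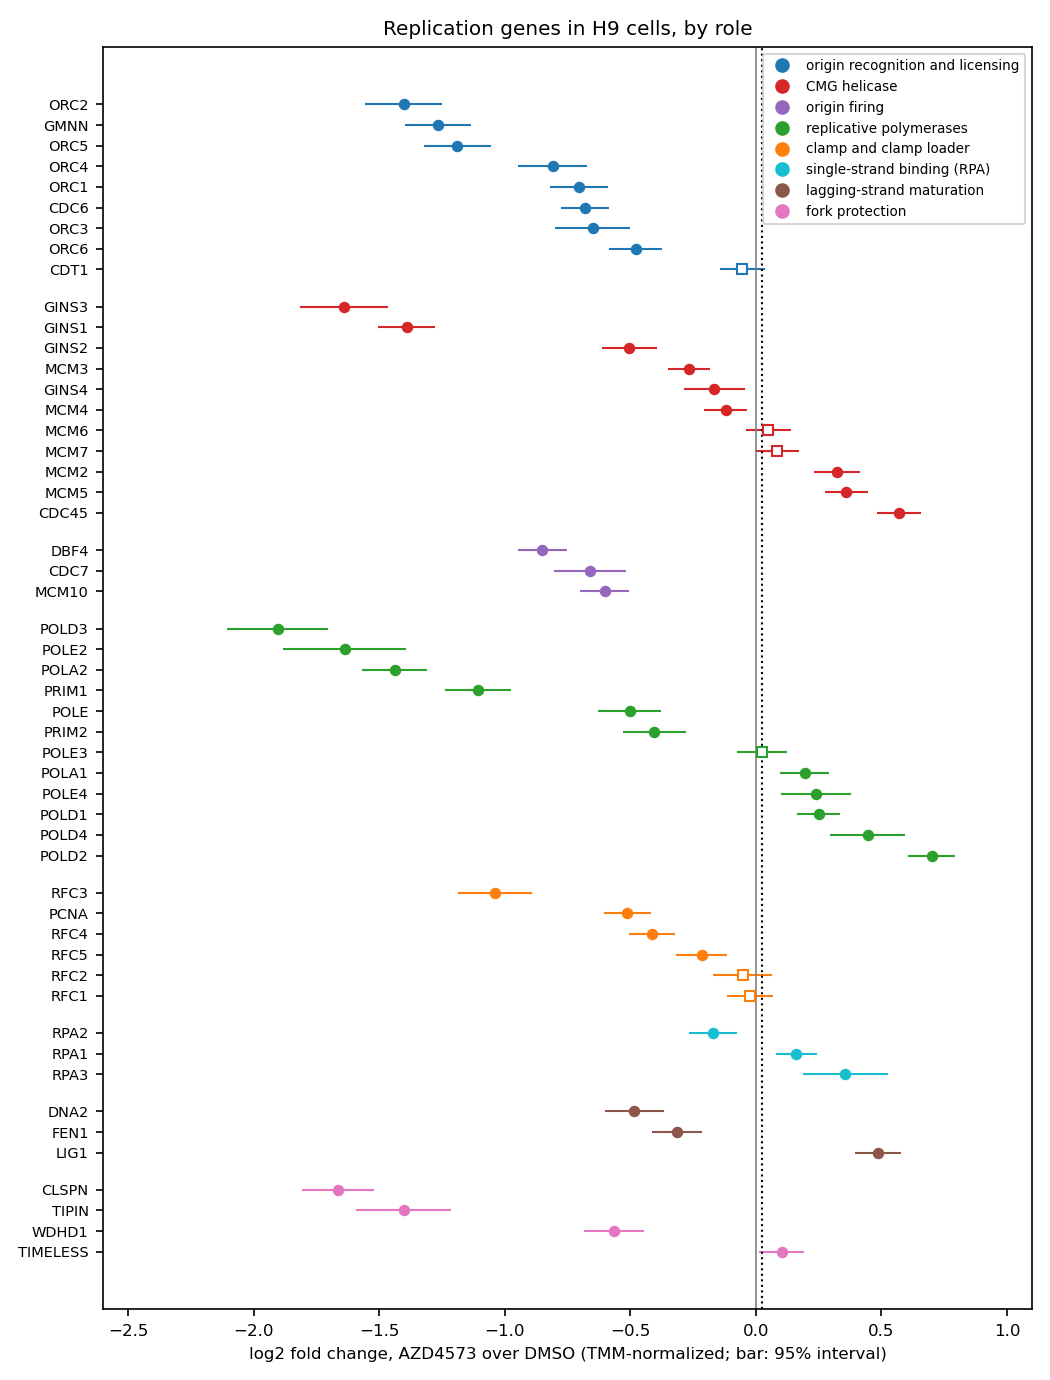
Log2 fold change of each replication gene (AZD4573 over DMSO, TMM-normalized, 3 libraries a group), grouped by role. Points are edgeR estimates, bars are 95% intervals, filled circles have an adjusted p under 0.05, open squares do not, and the dotted line is the median of all genes tested (0.03). Licensing and firing genes sit to the left, and the helicase and polymerase groups spread from -1.64 and -1.90 to 0.57 and 0.70. All positive values turn negative when libraries are scaled to mitochondrial mRNAs.

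Promoter sequence was set beside the changes, because E2F words are a common feature of these genes. RefSeq promoters (GRCh38.p14, 250 bases before to 50 after the start) matched 44 of the 51 genes, with no entry for RPA2, MCM4, GINS4, DNA2, POLD3, MCM5 and RPA3. An E2F word, defined as TTTCCCGC, TTTCGCGC, TTTGCCGC or TTTGGCGC on either strand, was present in 19 of the 44 promoters (43.2%), against 1164 of 35116 promoters of all genes (3.31%) and 798 of 16356 promoters of genes tested (4.88%). The words were found in 12 of 28 promoters of genes that were lower (42.9%) and in 7 of 16 of genes that were not (43.8%). The median log2 fold change was -0.50 for the 19 genes with a word and -0.41 for the 25 without. All 4 matched promoters of MCM2 to MCM7 genes and all 3 of GINS genes held one, whereas of the 6 origin recognition genes only ORC3 did. The word CCAAT, bound by NF-Y, was found on either strand in 25 of 44 promoters (56.8%), against 34.6% of all promoters and 34.6% of those of genes tested, and TTTGAA, the core of the CHR element of late cell-cycle genes, in 1 of 44 (2.27%), that of DBF4, against 15.2% of all and 10.5% of those of genes tested. A match is a match of letters only, and does not show that a factor was bound.

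The stretches below are shown because they carry words of the same E2F set and belong to genes that went different ways. POLA1 and POLA2 are partners within a complex, and their words differ (TTTGGCGC and TTTCGCGC). Of the licensing and helicase genes, CDT1 and MCM6 did not pass the test and GINS3 fell. MCM2 and LIG1 were higher with TMM and lower with mitochondrial scaling, and POLE2 and CLSPN fell strongly. Each is printed 5′ to 3′ on the strand of its gene, from RefSeq GRCh38.p14, and capitals mark the words. In MCM2 and MCM6 each capital run of 12 bases holds 2 words that overlap, 1 on each strand.
CDT1 (chr16:88803734-88803781, + strand): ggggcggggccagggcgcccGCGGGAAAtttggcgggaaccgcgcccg
MCM2 (chr3:127598393-127598440, + strand): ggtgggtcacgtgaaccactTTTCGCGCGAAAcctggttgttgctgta
MCM6 (chr2:135876502-135876615, - strand): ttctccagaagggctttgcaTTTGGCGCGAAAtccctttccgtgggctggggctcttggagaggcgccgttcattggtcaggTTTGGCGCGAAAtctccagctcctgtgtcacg
GINS3 (chr16:58392446-58392493, + strand): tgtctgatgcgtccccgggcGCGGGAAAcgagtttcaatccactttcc
POLA1 (chrX:24693761-24693808, + strand): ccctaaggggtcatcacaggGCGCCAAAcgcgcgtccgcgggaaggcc
POLA2 (chr11:65261889-65261936, + strand): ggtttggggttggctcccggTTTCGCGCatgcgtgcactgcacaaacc
POLE2 (chr14:49688192-49688239, - strand): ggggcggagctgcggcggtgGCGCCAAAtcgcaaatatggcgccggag
LIG1 (chr19:48170431-48170478, - strand): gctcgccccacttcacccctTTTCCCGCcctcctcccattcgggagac
CLSPN (chr1:35769956-35770003, - strand): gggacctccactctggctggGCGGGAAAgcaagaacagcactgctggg
The position of the word did not separate these genes. In GINS3, POLE2 and CLSPN it spans the start site, from 5 bases before it to 2 after, and their log2 fold changes were -1.64, -1.64 and -1.66. In MCM3 a word also spans the start (4 bases before to 3 after), and its log2 fold change was -0.26. In MCM7 a word ends 2 bases before the start and in MCM2 the first begins 2 bases after it, and these genes were at 0.08 and 0.32 with TMM scaling and at -0.66 and -0.42 with mitochondrial scaling. The words of POLA1 and LIG1 begin 137 and 114 bases before the start, and both genes were higher with TMM scaling and lower with mitochondrial scaling. MCM6, with 4 words, did not pass the test.

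Origin recognition and licensing genes were lower in 8 of 9 cases, 7 of them by at least 1.5-fold, with a median log2 fold change of -0.70 and none above 0. Of all genes tested 37.4% were lower, and 23.7% were lower by at least 1.5-fold. All 6 subunits of the origin recognition complex fell, and their summed level went from 262 ± 2.75 CPM with DMSO to 153 ± 5.46 CPM with AZD4573 (SD, n = 3 each), or 58.5%. ORC2, a core subunit, fell most. It stood at 29.3, 31.5 and 32.0 CPM in the DMSO libraries and at 12.7, 10.9 and 11.5 CPM in the AZD4573 libraries, with no overlap between groups. Its log2 fold change was -1.40 ± 0.071 (SE), with an edgeR adjusted p of 1.00e-09, which leaves 37.8% of the control level. ORC5 (-1.19), ORC4 (-0.81), ORC1 (-0.70), which brings ATPase activity to the complex, and ORC3 (-0.65) followed, and ORC6, the smallest subunit, changed least (-0.48).

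Of the licensing factors, CDC6, the ATPase that works with CDT1 to load the MCM ring, fell from 182 ± 7.93 to 113 ± 2.60 CPM (log2 fold change -0.68, edgeR adjusted p = 1.13e-08). CDT1 itself was at 177, 184 and 181 CPM with DMSO and at 169, 179.9 and 173 CPM with AZD4573. These groups overlapped, and the log2 fold change of -0.05 had a 95% interval of -0.14 to 0.04 (edgeR adjusted p = 0.256). Geminin (GMNN), the protein inhibitor of CDT1, fell from 78.4 ± 4.19 to 32.6 ± 2.24 CPM, to 41.6% of the control (log2 fold change -1.27, edgeR adjusted p = 6.43e-10). With library-size or mitochondrial scaling CDT1 too was lower (-0.16 and -0.79).

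Within the CMG helicase group the medians differed by complex, though the ranges of the GINS and MCM genes overlapped. The 4 GINS genes, whose products bridge the MCM ring and the polymerases, were all lower (median -0.95). The ring genes MCM2 to MCM7 were spread around 0 (2 lower, 2 higher, 2 not called, median 0.07). Their shares of 33.3% lower and 33.3% higher were near the 37.4% and 37.3% of all genes tested. CDC45 was higher on the TMM scale and lower (-0.17) with mitochondrial scaling. GINS3 stood at 34.7, 34.04 and 33.1 CPM with DMSO and at 12.6, 10.0 and 10.1 CPM with AZD4573, a clear gap between groups. It fell to 32.1% of the control (log2 fold change -1.64 ± 0.081 SE, edgeR adjusted p = 7.92e-10). GINS1 fell nearly as far (-1.39), GINS2 less (-0.50) and GINS4 least (-0.17), with a call for GINS4 that was lost without DMSO replicate 2 (adjusted p = 0.0570 in edgeR), AZD4573 replicate 2 (0.0516) or AZD4573 replicate 3 (0.0571).

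The 6 ring genes were among the most abundant replication transcripts, and their sum was 3900 ± 27.6 CPM with DMSO and 4049 ± 66.9 CPM with AZD4573 (SD, n = 3 each). MCM5 was at 423, 426 and 416 CPM with DMSO and at 525, 548 and 553 CPM with AZD4573. MCM2 was at 497, 485 and 477 CPM with DMSO and at 583, 628 and 614 CPM with AZD4573. Each treated library was above each control for both genes, and they rose by 0.36 ± 0.040 and 0.32 ± 0.042 (log2, SE) with TMM scaling but stood at -0.38 and -0.42 with mitochondrial scaling. MCM3 (-0.26) and MCM4 (-0.12) were lower, and MCM6 (0.05, 95% interval -0.04 to 0.14) and MCM7 (0.08, edgeR adjusted p = 0.0766) did not pass the test. The 6 subunits form a ring with 1 copy of each, and the changes of their transcripts ranged from -0.26 to 0.36. CDC45, the helicase cofactor that joins the ring at firing, was at 103, 102 and 100.4 CPM with DMSO and at 155, 148 and 150.4 CPM with AZD4573. It rose to 149% of the control on the TMM scale (log2 fold change 0.57 ± 0.041 SE, edgeR adjusted p = 2.42e-08) and was at -0.17 with mitochondrial scaling, so within 1 helicase CDC45 and GINS3 transcripts went opposite ways with TMM.

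The 3 origin firing genes all fell by at least 1.5-fold, as did 23.7% of all genes tested. The summed level of the 3 went to 60.4% of the control. DBF4, the activating subunit of the CDC7 kinase, stood at 143, 135 and 132 CPM with DMSO and at 76.8, 75.1 and 75.4 CPM with AZD4573. Its treated libraries lay close together and far below the controls (log2 fold change -0.85 ± 0.045 SE, edgeR adjusted p = 1.57e-09). CDC7, the kinase itself, fell by 0.66. MCM10, a scaffold needed to activate the assembled helicase, was at 106, 107 and 103 CPM with DMSO and at 67.5, 72.6 and 68.8 CPM with AZD4573, again without overlap (log2 fold change -0.60 ± 0.046 SE, edgeR adjusted p = 4.50e-08).

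**Figure D2:**
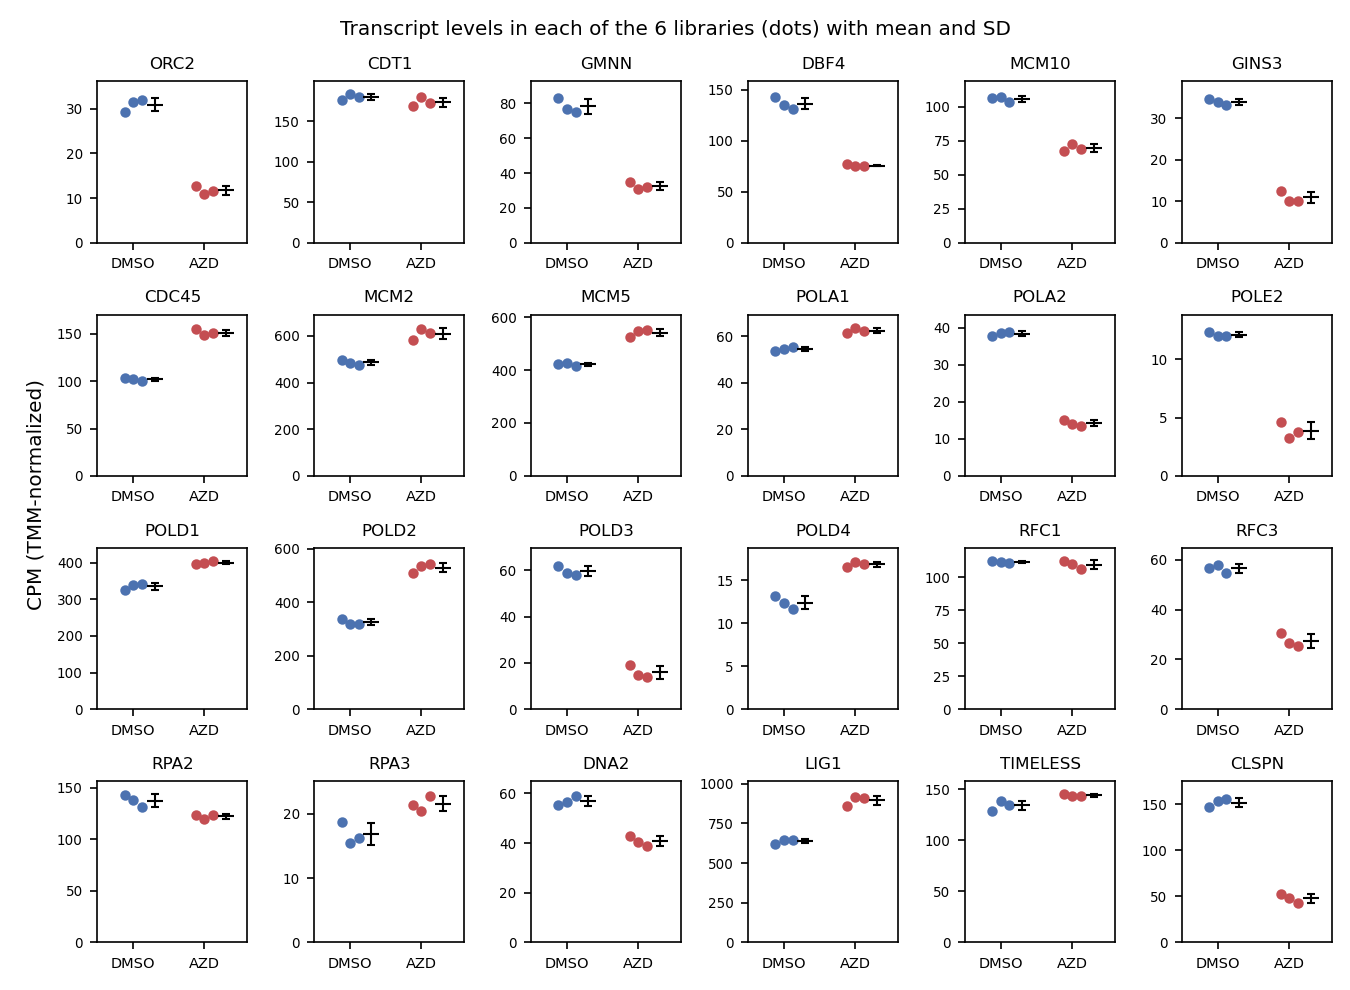
TMM-normalized CPM (axis from 0) of the genes described library by library, with GMNN and POLA1 added after their values were seen as partners of CDT1 and POLA2. Dots are the 3 DMSO (blue) and 3 AZD4573 (red) libraries, and the black marks are the mean and SD. POLD3, CLSPN and GINS3 fall to 26.7%, 31.6% and 32.1% of the control, and CDT1 and RFC1 overlap between groups. CDC45 is higher on this scale and lower with mitochondrial scaling. POLD2 is higher on this scale and stands at -0.039, without a call, with mitochondrial scaling.

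Among the replicative polymerases 6 of 12 genes were lower, 5 were higher with TMM scaling (none with mitochondrial scaling) and POLE3 was not called. With TMM that is 50% lower and 41.7% higher, against 37.4% and 37.3% of all genes tested. Among protein-coding genes the shares were 44.3% and 35.8%, so the polymerase group was not far from either background. In each of the 3 polymerases at least 1 accessory or regulatory subunit fell by 1.5-fold or more while another subunit did not fall on the TMM scale. Polymerase delta, which copies the lagging strand, showed the widest gap. Its subunit POLD3 stood at 62.1, 58.8 and 57.9 CPM with DMSO and at 19.2, 14.8 and 14.0 CPM with AZD4573, the largest fall of the 51 genes (log2 fold change -1.90 ± 0.093 SE, edgeR adjusted p = 7.34e-10). Another accessory subunit, POLD2, was at 337, 318 and 319.9 CPM with DMSO and at 509, 535 and 542 CPM with AZD4573. It was the gene with the highest fold change of the 51 (0.70 ± 0.043 SE, edgeR adjusted p = 5.87e-09), and with mitochondrial scaling it stood at -0.039 (adjusted p = 0.528).

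The catalytic subunit POLD1 was at 324, 339.8 and 343 CPM with DMSO and at 395, 399.8 and 403 CPM with AZD4573. The small subunit POLD4 was at 13.1, 12.3 and 11.6 CPM with DMSO and at 16.6, 17.05 and 16.9 CPM with AZD4573. Neither gene overlapped between groups, and they rose by 0.25 ± 0.040 and 0.44 ± 0.070 (log2, SE) with TMM scaling but stood at -0.49 and -0.30 with mitochondrial scaling. The edgeR adjusted p-values of the TMM changes were 6.26e-05 for POLD1 and 5.77e-05 for POLD4.

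Polymerase alpha-primase, which lays down the primers, was lower in 3 of its 4 subunits, against 37.4% of all genes tested. POLA2, the regulatory subunit, stood at 37.8, 38.5 and 38.9 CPM with DMSO and at 14.99, 14.1 and 13.4 CPM with AZD4573, a fall to 36.9% with no overlap (log2 fold change -1.44 ± 0.060 SE, edgeR adjusted p = 2.08e-10). The primase subunits PRIM1 (-1.11) and PRIM2 (-0.40) were lower too. POLA1, the catalytic subunit, was at 54.5 ± 0.753 CPM with DMSO and 62.4 ± 1.18 CPM with AZD4573, a rise of 0.19 with TMM scaling (edgeR adjusted p = 0.00152) that was a fall of 0.54 with mitochondrial scaling and did not pass with library-size scaling (0.090, adjusted p = 0.0860). POLA1 and POLA2 both hold an E2F word in the stretches printed above.

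In polymerase epsilon, which copies the leading strand, the subunit that fell most was POLE2. It was at 12.4, 11.98 and 11.98 CPM with DMSO and at 4.66, 3.24 and 3.80 CPM with AZD4573, a fall to 32.1% of the control with no overlap (log2 fold change -1.64 ± 0.11 SE, edgeR adjusted p = 2.02e-08). The catalytic subunit POLE fell from 306 ± 24.4 to 216 ± 11.0 CPM (-0.50). The histone-fold subunits POLE3 and POLE4 differed from these, with POLE3 at 0.02 (95% interval -0.08 to 0.12) and POLE4 at 0.24 with TMM scaling and -0.50 with mitochondrial scaling.

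PCNA, the sliding clamp that tethers the polymerases, had the highest level per transcript length with DMSO of the 51 genes, 583 CPM per kb. It fell from 744 ± 34.3 to 522 ± 5.39 CPM (log2 fold change -0.51, edgeR adjusted p = 1.46e-07). Of the clamp loader subunits, RFC3 stood at 56.9, 58.2 and 54.8 CPM with DMSO and at 30.7, 26.7 and 25.3 CPM with AZD4573. That is a fall to 48.6% without overlap (log2 fold change -1.04 ± 0.068 SE, edgeR adjusted p = 1.05e-08). RFC1, the large subunit, was at 112, 111 and 111 CPM with DMSO and at 112, 110.2 and 106 CPM with AZD4573, and the groups overlapped (log2 fold change -0.02, 95% interval -0.11 to 0.07). RFC4 (-0.41) and RFC5 (-0.22) were lower, and RFC2 did not pass the test (-0.05, 95% interval -0.17 to 0.06). With library-size scaling RFC1 and RFC2 passed as lower (-0.13 and -0.16).

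The 3 RPA genes, whose products coat exposed single-stranded DNA, all passed the test, with 1 lower and 2 higher with TMM scaling (none with mitochondrial scaling) and no change of 1.5-fold on the TMM scale. Of all genes tested 37.4% were lower and 37.3% higher with TMM. RPA3 was at 18.7, 15.5 and 16.3 CPM with DMSO and at 21.4, 20.4 and 22.8 CPM with AZD4573. RPA2 was at 143, 138 and 131 CPM with DMSO and at 124, 119.9 and 123 CPM with AZD4573. Groups did not overlap for either gene, and RPA3 rose by 0.36 ± 0.078 (log2, SE, edgeR adjusted p = 0.00102) with TMM scaling and fell by 0.38 with mitochondrial scaling, while RPA2 fell by 0.17 ± 0.044 (edgeR adjusted p = 0.00334). RPA1, the large DNA-binding subunit, was at 0.16 with TMM scaling (edgeR adjusted p = 0.00179), at 0.057 with library-size scaling (adjusted p = 0.142) and at -0.58 with mitochondrial scaling.

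In lagging-strand maturation, LIG1, the ligase that seals Okazaki fragments, went opposite to both nucleases on the TMM scale. It stood at 623, 648 and 647 CPM with DMSO and at 862, 917 and 908 CPM with AZD4573, a rise of 0.49 ± 0.042 (log2, SE, edgeR adjusted p = 1.76e-07) that was a fall of 0.25 with mitochondrial scaling. DNA2, a helicase and nuclease that trims long flaps, was at 55.4, 56.5 and 59.1 CPM with DMSO and at 43.0, 40.4 and 38.8 CPM with AZD4573. Its groups did not overlap (log2 fold change -0.48 ± 0.054 SE, edgeR adjusted p = 2.19e-06). FEN1, the main flap endonuclease, fell by 0.32.

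Fork protection genes had the lowest median of the 8 roles, -0.98, although there were only 4 of them. CLSPN encodes claspin, the adaptor that carries the checkpoint signal from ATR to CHK1 and supports fork speed. It stood at 147, 153 and 156 CPM with DMSO and at 53.0, 48.3 and 42.7 CPM with AZD4573, a fall to 31.6% of the control (log2 fold change -1.66 ± 0.066 SE, edgeR adjusted p = 1.52e-10). TIMELESS was at 129, 138 and 135 CPM with DMSO and at 145, 143 and 143 CPM with AZD4573. These libraries did not overlap, but the difference was small (0.10 ± 0.042, edgeR adjusted p = 0.0413), was lost when any 1 of the 6 libraries was left out (adjusted p from 0.0658 to 0.147), and was at -0.64 with mitochondrial scaling. Its binding partner TIPIN fell by 1.40, from 29.5 ± 1.25 to 11.2 ± 1.58 CPM, and WDHD1, which links polymerase alpha to the helicase, fell by 0.57.

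Ratios between partner genes within a library do not depend on how libraries are scaled, and 10 pairs were compared by a two-sided exact permutation test, for which 3 against 3 libraries allow no p below 0.1. The ratio of CDT1 to GMNN counts was 2.13, 2.40 and 2.40 with DMSO and 4.82, 5.88 and 5.39 with AZD4573, a log2 difference of 1.21. The ratio of POLA1 to POLA2 was 1.42 in each DMSO library and 4.09, 4.52 and 4.64 with AZD4573, a log2 difference of 1.63. The ratio of TIMELESS to TIPIN went from 4.16, 4.84 and 4.65 to 11.3, 12.96 and 14.8, a log2 difference of 1.51. In all of these pairs each treated library was above each control, and no scaling of the libraries can change these ratios.

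The largest shift was that of POLD3 to POLD1, from 0.191, 0.173 and 0.169 with DMSO to 0.0485, 0.0369 and 0.0347 with AZD4573 (log2 difference -2.16). POLE2 to POLE (-1.15), PRIM1 to PRIM2 (-0.71), CDC6 to CDT1 (-0.63) and RPA2 to RPA1 (-0.33) also went down, and ORC1 to ORC2 went up (0.70). In 9 of the 10 pairs the groups did not overlap and the exact permutation p was 0.1, the smallest it can be. After Benjamini-Hochberg adjustment over the 10 pairs it was 0.111, so no pair could pass 0.05. Pairs of other genes were not compared, so the share of all pairs without overlap is not known. Of single genes tested, 38.7% lay below and 39% above in all treated libraries. The ratio of DBF4 to CDC7 was 4.13, 3.60 and 3.70 with DMSO and 3.19, 3.18 and 3.66 with AZD4573, and these groups overlapped (log2 difference -0.19, exact permutation p = 0.2).

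**Figure D3:**
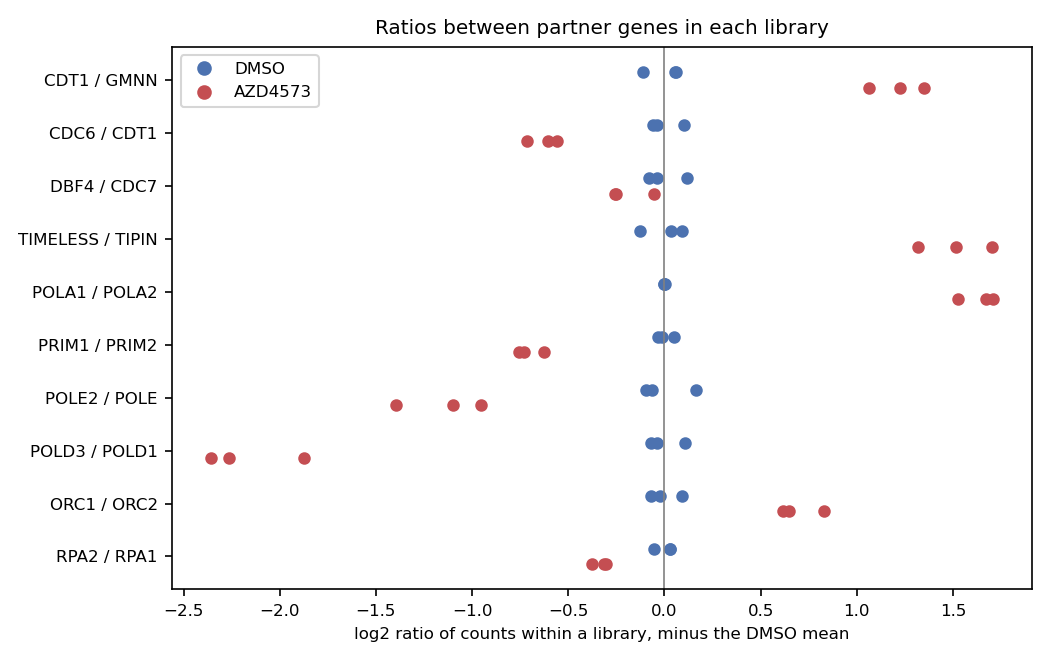
Log2 ratio of the counts of partner genes in each library, minus the mean of the 3 DMSO libraries, for 10 pairs. Dots are DMSO (blue) and AZD4573 (red) libraries. The POLD3 to POLD1 ratio moves farthest (-2.16), TIMELESS to TIPIN and POLA1 to POLA2 move up by 1.51 and 1.63, and only DBF4 to CDC7 overlaps between groups.

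The changes were also ordered by transcript level. With levels given as CPM per kb of the canonical transcript and averaged over the 6 libraries, the 17 most abundant replication genes had a median log2 fold change of 0.05, with 5 lower, 7 higher (none with mitochondrial scaling) and none down by 1.5-fold or more. The middle 17 had a median of -0.50, with 14 lower and 8 of them by at least 1.5-fold. The 17 least abundant had a median of -0.81, with 14 lower and 11 of them by at least 1.5-fold. Over all genes tested, whatever their level, 37.4% were lower, 37.3% higher and 23.7% lower by at least 1.5-fold. In DMSO the levels ran from 583 CPM per kb for PCNA and 502 for MCM7 down to 7.16 for POLE2, 6.14 for WDHD1 and 3.78 for ORC4.

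Across the 51 genes, Spearman's rho between level per kb and log2 fold change was 0.549, against -0.171 over the 17638 genes tested that had a length and -0.0555 over 13423 protein-coding genes. These are descriptions across genes, which are not independent replicates, and level and change come from the same 6 libraries. POLD4, RPA3 and POLA1 were exceptions among the less abundant genes, being higher with TMM scaling (0.44, 0.36 and 0.19) and lower with mitochondrial scaling.

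**Figure D4:**
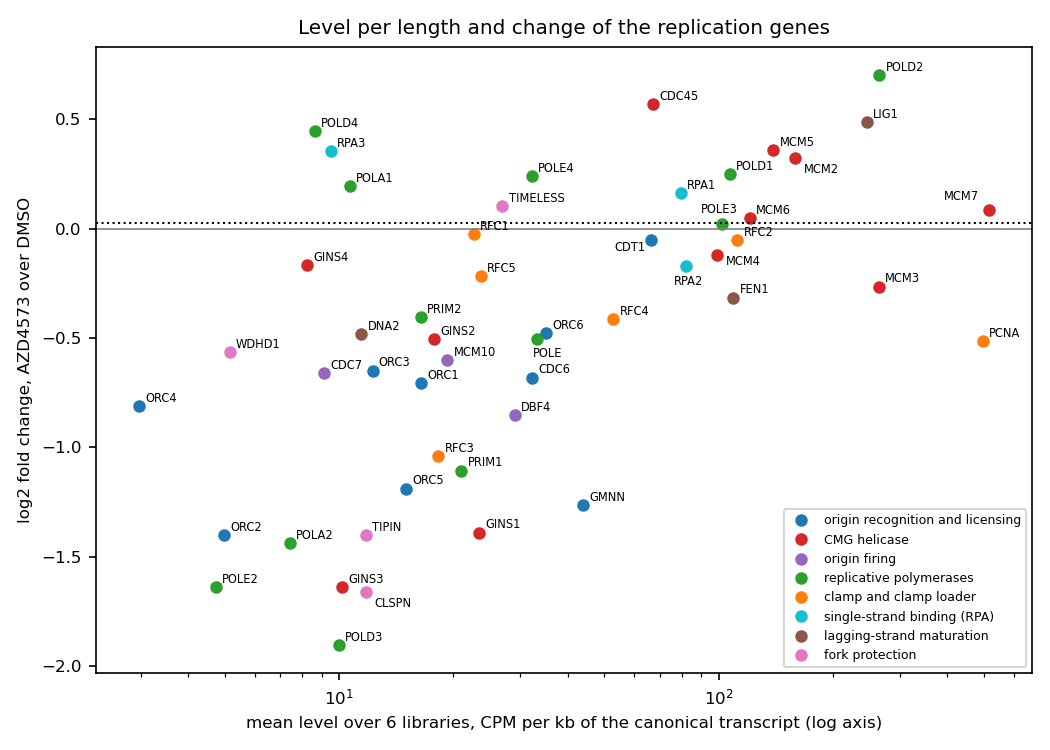
Log2 fold change (AZD4573 over DMSO, TMM-normalized) of each replication gene against its mean level over the 6 libraries in CPM per kb of canonical transcript (log axis), colored by role. The dotted line is the median of all genes tested (0.03). The 17 most abundant genes have a median of 0.05 and the 17 least abundant a median of -0.81. Points above 0 lie below it with mitochondrial scaling.

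Gene length showed a weaker pattern. Across the 51 genes rho between genomic span and log2 fold change was -0.305, against -0.101 over all genes tested and -0.0260 over protein-coding genes, and rho for merged exon length was -0.00697 and for the number of canonical exons 0.0847. In bins of span (up to 10 kb, to 25 kb, to 50 kb, to 100 kb and above) the medians of the 7, 15, 11, 13 and 5 replication genes were 0.02, -0.26, -0.60, -0.57 and -1.04. Protein-coding genes of the same bins had medians of 0.06, -0.067, -0.12, -0.22 and -0.0070, lower with span up to 100 kb and near 0 above it. Of the 5 genes with the longest annotated span, POLD3 (chr11:74493851-74669117), GINS3 (chr16:58295080-58406147) and RFC3 (chr13:33818069-33966558) fell by more than 1 on the log2 scale. PRIM2 fell by 0.40, but POLA1 (chrX:24693873-24996986) did not fall with TMM scaling. The RefSeq promoter of GINS3 (chr16:58392221-58392520) lies far inside its annotated span, so GINS3 counts as long by this annotation only. How a shorter span of GINS3 would change the rho and the medians was not tested. Among protein-coding genes 44.3% were lower and 35.8% higher, a background closer to the replication genes than all genes tested.

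Some values rest on shared sequence. By GENCODE 44 annotation (GRCh38), 24 of the 51 genes share exon bases with another gene, 19 of them with a gene on the opposite strand that counting without strand cannot separate, and 11 have named pseudogenes, among them PCNA, RPA2 and DBF4 with 3 each. For genes that fell strongly the shared part was 123 bases in POLD3, 256 in ORC2, 259 in GINS1 and 280 in CLSPN. It was 558 in GINS3, 579 in TIPIN, 633 in PRIM1 and 2555 in POLA2, which overlaps another protein-coding gene of the same strand. Among genes higher with TMM scaling it was 1113 bases in MCM2, 650 in POLD4, 426 in POLD1 and 425 in LIG1. It was 175 in RPA1, 118 in RPA3 and 41 in CDC45, while MCM5, POLD2, POLA1, POLE4 and TIMELESS shared none. POLE2, MCM5 and ORC5 were among 21 genes with neither shared exon bases nor a named pseudogene.

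Genes of the same process outside the 51 were taken from 7 lists. Of their 62 genes 35 were lower (56.5%) and 18 higher (29.0%) with TMM scaling, with a median of -0.23. Over all genes tested 37.4% were lower and 37.3% higher, and over protein-coding genes 44.3% and 35.8%. With mitochondrial scaling 61 of the 62 were lower and the last, CHTF8, was at 0.085 (edgeR adjusted p = 0.259). That scaling gave 11878 lower and 2144 higher of the 17678 genes tested. Regulators of origin firing were lower in 11 of 11 cases, from CCNE2, a cyclin partner of CDK2 in S-phase entry (-2.10, from 28.9 ± 1.13 to 6.75 ± 1.22 CPM), to CDK2 itself (-0.10, edgeR adjusted p = 0.0390). The call of CDK2 was lost, leaving 10 lower, with the replicate block and without DMSO replicate 3, AZD4573 replicate 2 or AZD4573 replicate 3, and those of CDK2 and MTBP were lost, leaving 9, without DMSO replicate 2 and with at least 10 counts in every library. Of 9 replication checkpoint genes 7 were lower, with HUS1, a subunit of the checkpoint clamp, lowest (-1.59), and ATR, the kinase at the top of that pathway, highest (0.30 with TMM and -0.44 with mitochondrial scaling).

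The lists of the remaining processes were mixed, beside 37.4% lower and 37.3% higher over all genes tested. Of 10 genes of dNTP supply 3 were lower and 5 higher, with the ribonucleotide reductase subunit RRM2 lowest (-1.66, from 605 ± 15.4 to 192 ± 11.2 CPM) and the thymidine kinase TK1 highest (0.55 with TMM and -0.19 with mitochondrial scaling). Of 8 genes of chromatin assembly behind the fork 4 were lower, led by the histone chaperone ASF1A (-1.03), and 4 higher, led by the maintenance methyltransferase DNMT1 (0.27 with TMM and -0.47 with mitochondrial scaling). Of 8 alternative clamp loader and PCNA regulator genes 4 were lower, with the deubiquitinase USP1 lowest (-0.79), and 2 higher, with CHTF8 highest (0.82 with TMM and 0.085 with mitochondrial scaling). Of 6 genes of CDT1 turnover 3 were lower, with the CRL4 substrate receptor DTL lowest (-0.57), and 2 higher, with CKS1B highest (0.56 with TMM and -0.18 with mitochondrial scaling). Of 10 topoisomerase and replisome disassembly genes 3 were lower, with the ubiquitin ligase TRAIP lowest (-1.90), and 4 higher, with FAF1 highest (0.33 with TMM and -0.41 with mitochondrial scaling).

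How the libraries are scaled sets the zero line of all these changes. Mitochondrially encoded mRNAs took 3.04% to 3.22% of counts in the DMSO libraries and 4.67% to 4.98% in the AZD4573 libraries. Scaling to them moved the median of all genes from 0.03 to -0.71 and the median of the replication genes from -0.41 to -1.15, while the difference between these medians stayed at -0.44. Such a scaling moves every gene by nearly the same amount, so differences between genes hardly depend on it while the sign of a change does. Which scaling is closer to transcripts per cell was not tested.

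**Figure D5:**
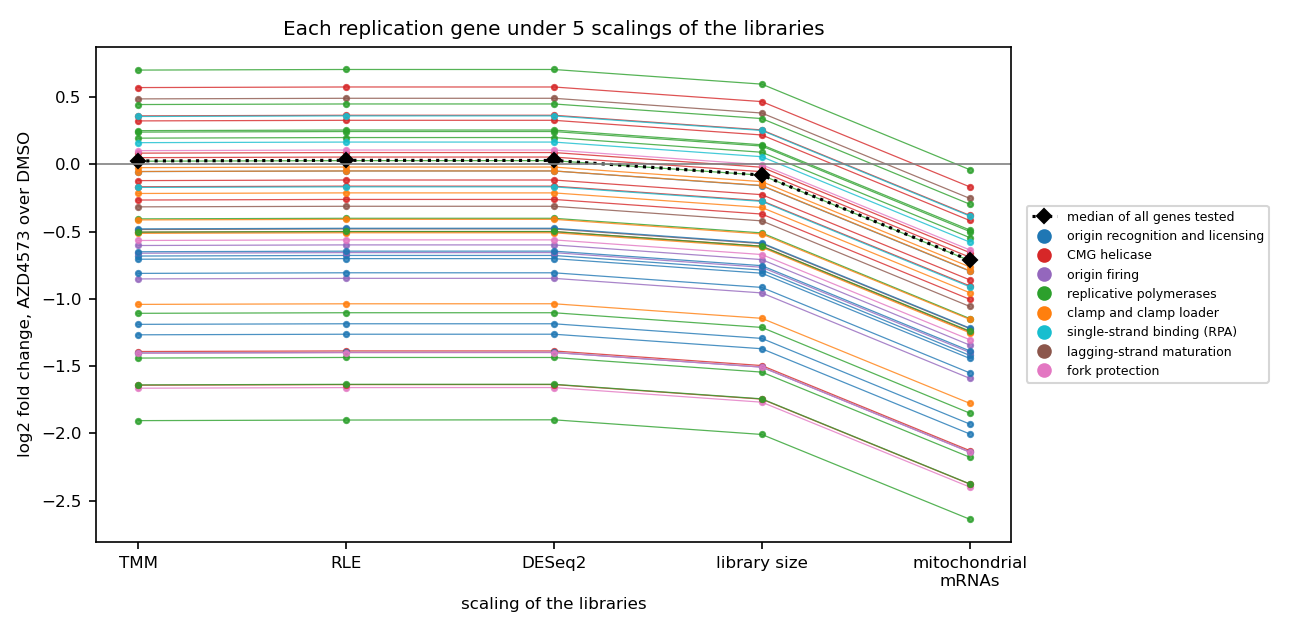
Log2 fold change (AZD4573 over DMSO) of each replication gene under 5 scalings of the libraries, colored by role, with the median of all genes tested as black diamonds. The median of all genes moves from 0.03 with TMM to -0.71 with mitochondrial scaling. The scaling moves all lines by nearly the same amount, and the 12 genes that were higher with TMM lie below 0 with mitochondrial scaling.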

How the data were processed

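RNA-seq of 6 H9 libraries (3 DMSO, 3 AZD4573, grouped by their labels) was analysed. The authors deposited RSEM expected counts per gene, given as whole numbers and not normalized. According to the submitters' processing notes and the supplemental methods, reads were trimmed with cutadapt 2.3 after FastQC 0.11.8, aligned to GRCh38 with STAR 2.7.8a and quantified with RSEM 1.3.3 at default settings, which use no strand, so overlapping genes cannot be told apart. The labels describe poly(A) selection, and the supplemental methods ribosomal RNA depletion. The 5 reporter rows had 0 counts and were left out.

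Expected counts were rounded to whole numbers. In R 4.3.3, edgeR 4.0.16 kept 17678 genes (filterByExpr, minimum count 10), scaled the libraries by TMM and fitted all of them with the quasi-likelihood test, group as the only term and Benjamini-Hochberg adjustment over all genes tested. CPM were computed by edgeR from the TMM-scaled library sizes, errors of CPM are SD and errors of log2 fold changes are SE. Total counts per library were 52101868 to 76571157, and limits based on them cover counting error only. No pair of libraries had counts alike enough to be 1 library.

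Alternatives were RLE factors, library size alone, scaling to the 13 mitochondrial mRNAs, no filter, at least 10 counts in every library, a replicate block, leaving out each library and DESeq2 1.42.0. On simulated counts for this comparison (17359 genes, 200 changed), edgeR recovered 200 and called 14 of 17159 unchanged genes. Equal numbers of genes were raised and lowered there and all others were left unchanged. It therefore cannot show which scaling holds for the real libraries, where most genes were called. The members, roles and gene lists were chosen with earlier results of these data known. Values per library are given for the genes with the lowest and highest change in each role, the 5 lowest of all and the 8 highest risers that passed. Genes of other lists are named where lowest or highest in their list.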

Additional observations from a re-analysis of the deposited data

How the results depend on the processing

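Under all 13 alternatives 31 of the 51 genes had the same direction and the same call, and over genes and alternatives 618 of 663 values did. With mitochondrial scaling 50 genes were lower (40 by at least 1.5-fold) and 0 were higher (0 by at least 1.5-fold), because the scaling lowers every value. Of the 17678 genes tested 11878 were lower and 2144 higher with that scaling. These values were then negative: MCM2 -0.42, MCM5 -0.38, MCM6 -0.69, MCM7 -0.66, CDC45 -0.17, POLA1 -0.54, POLD1 -0.49, POLD2 -0.039, POLD4 -0.30, POLE3 -0.72, POLE4 -0.50, RPA1 -0.58, RPA3 -0.38, LIG1 -0.25 and TIMELESS -0.64. With library size alone MCM6 (-0.054), MCM7 (-0.021), POLE3 (-0.080) and TIMELESS (-0.0025) were negative. With it 36 genes were lower and 8 higher, POLA1, POLE4 and RPA1 losing their calls, beside 7347 lower and 5739 higher of the 17678 genes tested. POLE3 was also negative with no filter (-0.019), and ranged from -0.026 (without DMSO replicate 3) to 0.059 (without DMSO replicate 1) when each library was left out.

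With at least 10 counts in every library, RFC1 was positive (0.013), 2 genes rose by at least 1.5-fold, MCM4 lost its call (adjusted p = 0.0644 in edgeR) and MCM7 gained one (0.0185), as it did in DESeq2 (0.0375). The cause of these shifts was not tested. Leaving out each library gave 32 to 33 genes lower and 11 genes higher. Of the 18095 to 18234 genes then tested, 6367 to 6637 were lower and 6241 to 6577 higher. The replicate numbers did not pair the libraries (correlations of deviations -0.0208, 0.0417 and 0.0316). A replicate block gave 33 lower and 11 higher, beside 6524 lower and 6447 higher of the 17678 genes tested. Among the 51 genes the block changed only the call of TIMELESS (0.10, edgeR adjusted p = 0.0612). At this depth every one of the 51 genes was above the count limit in each library.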
